A study of Rattus norvegicus with 6 samples.

Results

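The genes described here encode the 5 kainate receptor subunits, Grik1 to Grik5, in cultured rat retinal ganglion cell neurons (RGCs). Every probe set whose only gene symbol in the platform annotation is one of these names was taken, whatever its values. A probe set is the unit of measurement on the array, several short probes read out together as 1 value. Each of the 5 genes had 1 probe set, so 5 of the 31042 probe sets on the array and 5 of 14217 named genes are described. Their NCBI gene identifiers are 29559 for Grik1, 54257 for Grik2, 298521 for Grik3, 24406 for Grik4 and 24407 for Grik5.

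The series holds 6 expression arrays (Affymetrix Rat Genome), 2 for each of 3 groups. Gpc4 RGCs received glypican 4, an astrocyte-secreted heparan sulfate proteoglycan, for 12 hours. It was His-tagged rat Gpc4, secreted by HEK293 cells (an established line of human embryonic kidney origin) and purified on nickel beads. TSP1 RGCs received recombinant mouse thrombospondin 1 for 12 hours, and Alone RGCs received no protein. All groups came from Sprague Dawley rat pups of both sexes, labelled as postnatal day 6 and kept for 12 days in medium with BDNF and CNTF. Each array carried RNA from pooled wells, and replicate numbers 1 and 2 stand for separate RGC cultures. No array received a control protein made in the same way as Gpc4. The study used Gpc4 to induce synapses with AMPA receptors and TSP1 to induce synapses without them, and the comparisons below ask whether the mRNA of the kainate receptor subunits moved with either protein.

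Kainate receptors are glutamate-gated cation channels built from 4-subunit assemblies, related to AMPA and NMDA receptors. GluK1, GluK2 and GluK3, encoded by Grik1, Grik2 and Grik3, can form channels on their own. GluK4 and GluK5, encoded by Grik4 and Grik5, bind kainate with higher affinity and need one of the other subunits to reach the surface as working channels. At synapses, kainate receptors act on both sides, carrying slow postsynaptic currents and tuning transmitter release. In the retina they are known for carrying signals from cones to OFF bipolar cells.

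The mRNA signal of no kainate receptor subunit changed with Gpc4 or with TSP1 by the test used here, and the largest difference from Alone was that of Grik5, whose probe set had the highest signal of the 5, at 0.862-fold with Gpc4. Values are log2 expression values, so a difference of 1 is a doubling of signal. Array medians lay between 5.96 and 5.99, and the 2 arrays of a group differed by a median of 0.10 (Gpc4) or 0.11 (TSP1 and Alone). Of 9 measured RGC markers, 9 lay above the median of every array, among them Thy1, Slc17a6 and Sncg, and Pou4f2 had no named probe set. Of 4 measured bipolar cell markers, none did. Summed linear signal of the horizontal cell markers was 1547 to 1696 in Gpc4, 1718 to 1891 in TSP1 and 1940 to 2094 in Alone, most of it from Calb1, which RGCs can also express. That of the Muller glia and astrocyte markers, most of it from Glul, was 1532 to 1548 in Gpc4, 1386 to 1461 in TSP1 and 1158 to 1310 in Alone. That of the amacrine cell markers was 532.6 to 558.9 in Gpc4, 568.9 to 606.2 in TSP1 and 555.5 to 607.2 in Alone, and that of the fibroblast and endothelial markers 462.2 to 525.5, 298.5 to 436.7 and 312.1 to 557.5 in the same order. The part of these shifts in the values below was not tested. No marker of these lists or of the microglia and photoreceptor lists passed the limma test described next, in any comparison. With the replicate block Kdr, an endothelial receptor, was higher with Gpc4 than with TSP1 (log2 difference 1.13, adjusted p = 0.0171 from limma). Others of its list differed with Gpc4 against Alone by 0.22 (Pecam1), 0.09 (Col1a1), -0.13 (Cldn5) and -0.385 (Col3a1), beside 0.83 for Kdr. Pecam1 and Cldn5, also endothelial, lay below the array medians, at means of 3.655 and 4.24 with Gpc4. At an unadjusted p under 0.05 limma called 7 of the 41 markers with Gpc4 against Alone, where it called 6.88% of all probe sets. Of the 7, Kdr (0.83), the Muller glia and astrocyte markers Glul (0.395) and Gfap (0.305) and the bipolar cell marker Prkca (0.255) were higher with Gpc4. The horizontal cell markers Onecut1 (-0.415) and Calb1 (-0.31) and the amacrine cell marker Gad2 (-0.36) were lower. The Muller glia and astrocyte markers had a median difference of 0.1175 there and reached -0.115 (Aqp4). The amacrine cell markers had a median difference of -0.07 there and reached 0.055 (Tfap2a). With TSP1 against Alone it called 2 of the 41 (4.4% of all probe sets). With Gpc4 against TSP1 it called 6 of the 41 (4.51% of all probe sets), 3 of them among the 7 amacrine cell markers. These 3 were lower with Gpc4, namely Gad2 (-0.495), Slc32a1 (-0.29) and Chat (-0.28), while Slc6a9 of that list went the other way (0.13). Kdr (1.13), Gfap (0.57) and the photoreceptor marker Rcvrn (0.325) were higher with Gpc4.

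Differences between groups come from limma, which fits a linear model to each of the 31042 probe sets over the 6 arrays and borrows information on the spread from all of them. The test was two-sided, and an adjusted p under 0.05 (Benjamini-Hochberg over all probe sets) was taken as a change. Between 2 arrays and 2 arrays an exact permutation test of a single probe set cannot go below p = 0.333, so none is given. Changed mRNA per cell and a changed share of cells cannot be told apart in these bulk samples.

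None of the 5 kainate receptor probe sets passed in any of the 3 comparisons. With Gpc4 against Alone 0 of 5 were called, where 0.0838% of all probe sets were. With TSP1 against Alone 0 of 5 were called, where 0% of all probe sets were. With Gpc4 against TSP1 0 of 5 were called, where 0.0612% of all probe sets were. At an unadjusted p under 0.05 limma also called 0 of 5 in each comparison, where it called 6.88% of all probe sets with Gpc4 against Alone, 4.4% with TSP1 against Alone and 4.51% with Gpc4 against TSP1. A second limma fit added the replicate number as a block, so that arrays were compared within a culture. It called 0 of 5 in each comparison after adjustment, beside 0.206%, 0.0129% and 0.258% of all probe sets in the same order. Without adjustment it called 1 of 5 with Gpc4 against Alone (Grik5, beside 9.44% of all probe sets), 0 of 5 with TSP1 against Alone (6.69%) and 0 of 5 with Gpc4 against TSP1 (6.62%). The methods name a t-test for pairwise comparisons in general, and for the arrays only the Affymetrix Expression Console software. Such a pairwise t-test, unadjusted, called 0, 0 and 1 of 5 in the same order (5.49%, 4.12% and 4.62% of all probe sets). The 1 was Grik4, and after Benjamini-Hochberg the t-test called 0 in each. The lowest adjusted p of a subunit from limma was 0.724, and 0.528 with the replicate block.

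The signal of the subunits differed widely between probe sets. Probe sets differ in how strongly they bind, so these values say how far each signal stood above dim probe sets and do not rank the mRNAs. As a guide to dim signal, 16 genes that neurons are not known for (such as Alb of liver, Prm1 of sperm and Umod of kidney) had mean values from 3.46 to 6.60, with a median of 4.43. Grik5 averaged 8.09 over the 6 arrays, above all 16 of them and between the 70.8th and 74.5th percentile of its array. Grik4 averaged 6.19 and Grik1 6.15, each above 15 of the 16, and both lay just above the median of every array. Grik2 averaged 5.52, above 14 of the 16, and Grik3 3.93, above 4 of the 16, and both lay below the median of every array. The deposited values carry no detection call. A difference in signals as low as those of Grik1 to Grik4 can understate a difference in mRNA. Grik3 in particular was not separated from the dim genes.

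**Figure D1:**
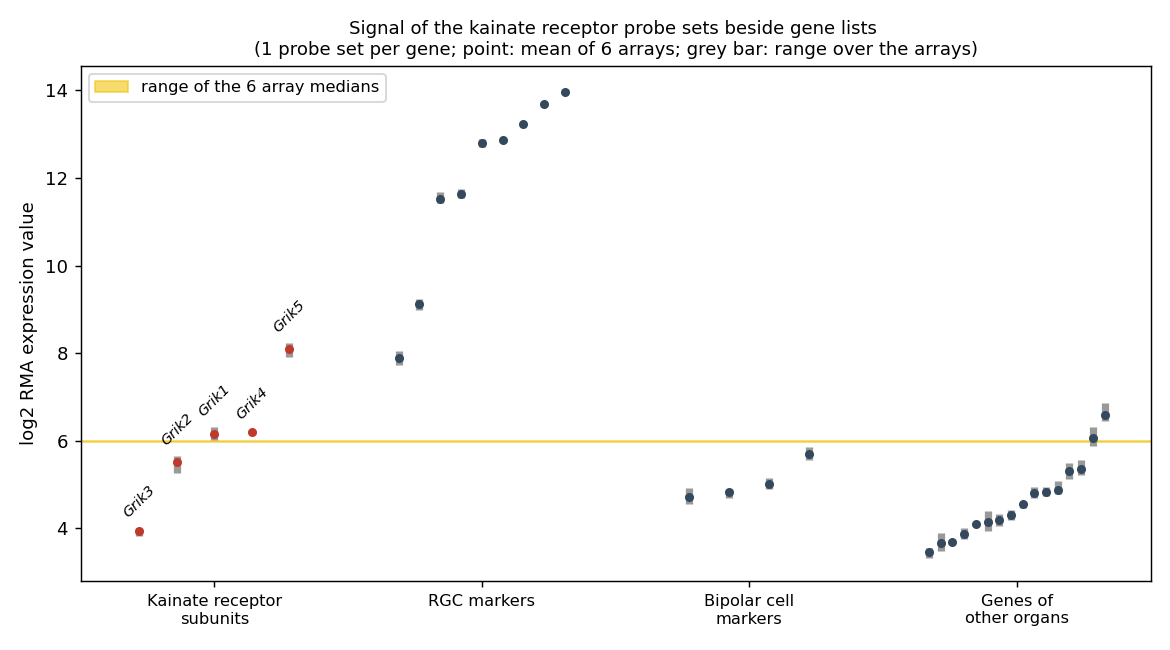
Log2 RMA expression values (y axis) of the 5 kainate receptor probe sets, 9 RGC markers, 4 bipolar cell markers and 16 genes of other organs, with 1 probe set per gene. Points are means of the 6 arrays and grey bars the range over the arrays. Grik5 stands at 8.09, above every gene of other organs, while Grik3 at 3.93 lies among them. The band marks the array medians of 5.96 to 5.99.

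Among the subunits that form channels on their own, Grik1 read 6.10 and 6.11 in the Gpc4 arrays, 6.15 and 6.32 in the TSP1 arrays and 6.01 and 6.18 in the Alone arrays. The Gpc4 values fell between the 2 Alone values, and TSP1 replicate 2 was the highest of the 6. The difference was 0.01 with Gpc4 against Alone (95% interval -0.23 to 0.25, adjusted p = 0.991 from limma). It was 0.14 with TSP1 against Alone (-0.10 to 0.38, adjusted p = 0.985 from limma), and 0.14 in each of the 2 cultures. Gpc4 lay below TSP1 with no overlap, by -0.13 (-0.37 to 0.11, adjusted p = 0.995 from limma).

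Grik2 read 5.57 and 5.26 in the Gpc4 arrays, 5.52 and 5.53 in the TSP1 arrays and 5.65 and 5.57 in the Alone arrays. The lower Gpc4 value, from culture 2, was 0.31 below its partner and the lowest of the 6, and the other equalled an Alone value. The difference with Gpc4 against Alone was -0.20 (95% interval -0.47 to 0.08, adjusted p = 0.787 from limma), made up of -0.08 in culture 1 and -0.31 in culture 2. It was -0.04 without Gpc4 replicate 2. With TSP1 against Alone it was -0.09 (-0.36 to 0.19, adjusted p = 0.987 from limma), with both TSP1 values under both Alone values. Gpc4 against TSP1 gave -0.11 (-0.38 to 0.16), of opposite sign in the 2 cultures, at 0.05 and -0.27.

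Grik3 read 3.94 on both Gpc4 arrays, 3.87 and 4.01 in the TSP1 arrays and 4.00 and 3.83 in the Alone arrays. Every group held values inside the range of another. The difference was 0.03 with Gpc4 and 0.03 with TSP1, each against Alone (95% interval -0.21 to 0.26 for both). Each had opposite signs in the 2 cultures. The range over the 6 arrays, 0.18, was narrower than the median range of all probe sets, 0.29.

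**Figure D2:**
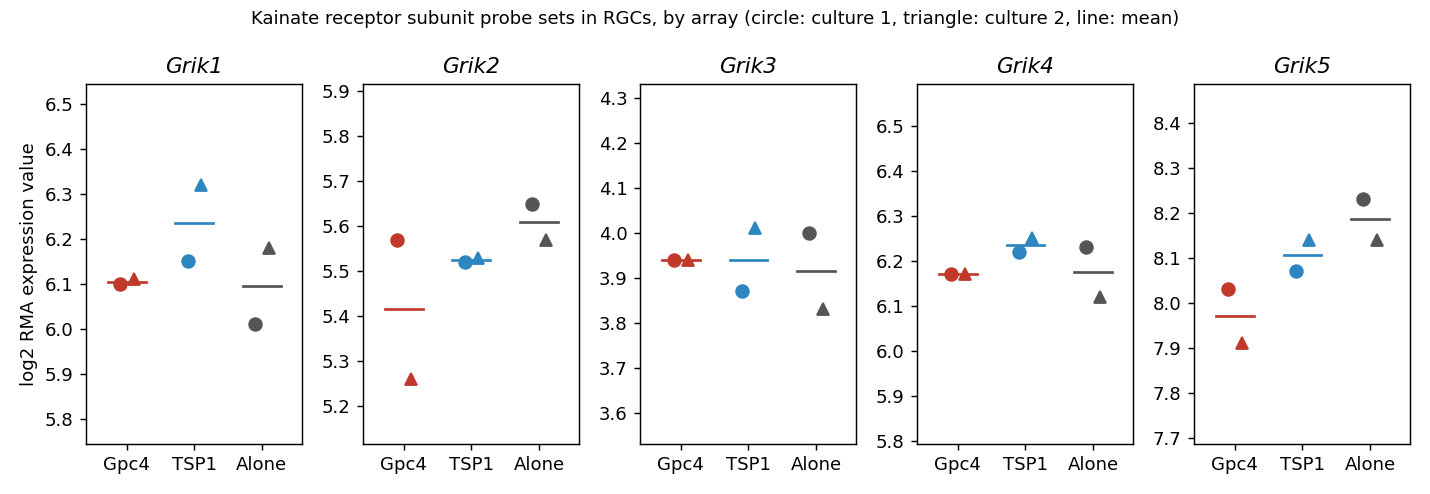
Log2 RMA expression values (y axis, each panel spanning the same number of log2 units) of Grik1 to Grik5 on each array in Gpc4, TSP1 and Alone. Circles are culture 1, triangles culture 2 and lines group means. In Grik5 the Gpc4 values of 8.03 and 7.91 lie below the Alone values of 8.23 and 8.14, and the TSP1 values of 8.07 and 8.14 lie between them or level with Alone replicate 2. In Grik2 the value of 5.26 in Gpc4 replicate 2 stands below the other 5.

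Of the high-affinity subunits, Grik4 read 6.17 on both Gpc4 arrays, 6.22 and 6.25 in the TSP1 arrays and 6.23 and 6.12 in the Alone arrays. It varied least, with a range of 0.13 over the 6 arrays, and 6% of all probe sets had a narrower one. The Gpc4 values fell between the Alone values, and the difference was -0.005 (95% interval -0.21 to 0.20, adjusted p = 0.991 from limma). With TSP1 against Alone it was 0.06 (-0.14 to 0.26, adjusted p = 0.987 from limma). Both Gpc4 values lay below both TSP1 values, by a mean difference of -0.065 (-0.27 to 0.14, adjusted p = 0.995 from limma). The pairwise t-test put this difference at an unadjusted p = 0.0493, with the Gpc4 arrays identical to 2 decimals.

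Grik5 read 8.03 and 7.91 in the Gpc4 arrays, 8.07 and 8.14 in the TSP1 arrays and 8.23 and 8.14 in the Alone arrays. Both Gpc4 values lay below all 4 others, and the TSP1 values lay between or level with Alone. With Gpc4 the mean was 7.97 ± 0.08 (SD of 2 arrays), against 8.19 ± 0.06 in Alone. The difference was -0.22, or 0.862-fold (95% interval -0.43 to 2e-04, unadjusted p = 0.0501 and adjusted p = 0.724 from limma), with -0.20 in culture 1 and -0.23 in culture 2. It was the subunit whose values came closest to the threshold, and it did not pass with the replicate number as a block either (adjusted p = 0.528 from limma). Such a separation of both arrays was common, since the lower non-overlapping pattern held for 18.9% of all probe sets in this comparison. With TSP1 against Alone the difference was -0.08 (-0.30 to 0.14, adjusted p = 0.986 from limma), from -0.16 in culture 1 and 0 in culture 2. Gpc4 against TSP1 gave -0.14 (-0.35 to 0.08, adjusted p = 0.995 from limma).

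The order of the group means was Gpc4, TSP1, Alone from low to high for Grik2 and Grik5. For Grik1 it was Alone, Gpc4, TSP1, for Grik4 Gpc4, Alone, TSP1, and for Grik3 Alone below Gpc4 and TSP1, which were equal. No neighbours in these orders differed by limma. Groups did not overlap in 1 of 5 probe sets with Gpc4 against Alone (Grik5, 35% of all probe sets), 1 of 5 with TSP1 against Alone (Grik2, 29.8%) and 3 of 5 with Gpc4 against TSP1 (Grik1, Grik4 and Grik5, 30.2%). These shares count either direction. All of these subunits were lower in the first group, a pattern held by 18.9%, 15.6% and 15.5% of all probe sets in the same order. The comparisons with Alone share the Alone arrays, and those with Gpc4 the Gpc4 arrays. The median difference of the 5 subunits was -0.005 with Gpc4 against Alone, 0.03 with TSP1 against Alone and -0.11 with Gpc4 against TSP1, beside -0.005 for all probe sets in each.

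The intervals bound the size of a change in signal. The 15 unadjusted 95% intervals of the subunits in the 3 comparisons ran from 0.724-fold at the lowest (Grik2, Gpc4 against Alone) to 1.30-fold at the highest (Grik1, TSP1 against Alone). For Grik5, whose signal was well above the dim genes, they ran from 0.742-fold to 1.10-fold.

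**Figure D3:**
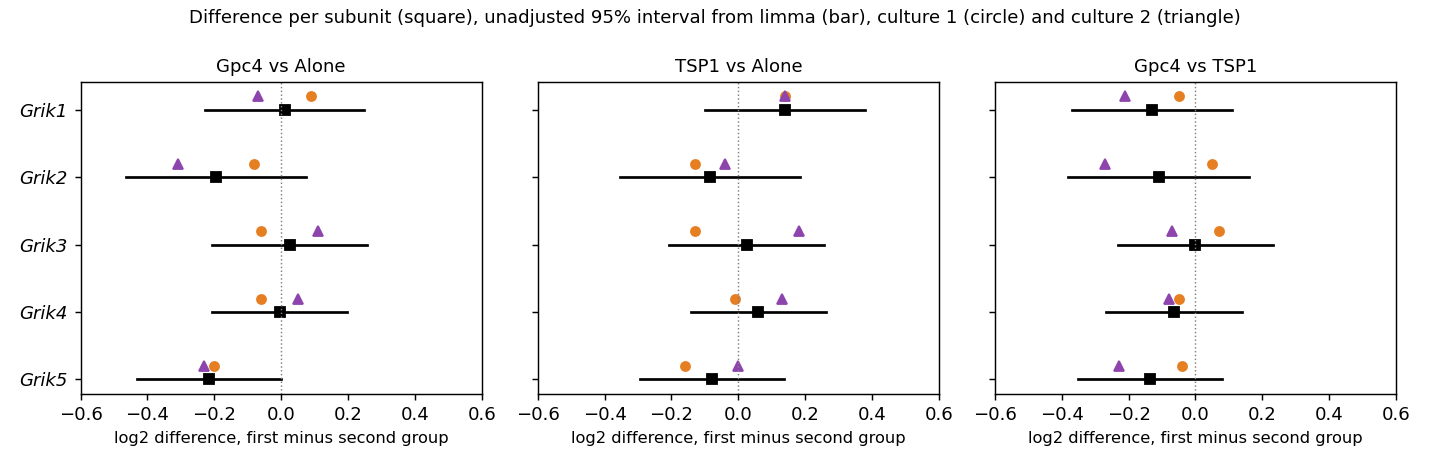
Log2 difference between groups (x axis, first minus second group) for each subunit, with 1 panel per comparison. Squares are the estimates, bars the unadjusted 95% intervals from limma, and circles and triangles the differences within culture 1 and culture 2. Each of the 15 bars spans 0, and the bar of Grik5 in Gpc4 against Alone ends at 2e-04.

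Kainate receptors work with partner proteins. The list of auxiliary subunits, scaffolds and editing enzymes described here holds the 15 with a named probe set. None of the 15 passed in any comparison by limma, with or without the replicate block, and 1 with Gpc4 against Alone, 0 with TSP1 against Alone and 1 with Gpc4 against TSP1 had an unadjusted p under 0.05. Their median difference was -0.015 with Gpc4 and 0.03 with TSP1 against Alone. The gene with the unadjusted p was in both cases Neto2, which encodes a transmembrane auxiliary subunit that slows the closing of kainate receptors. Neto2 (on its brighter probe set) read 7.41 and 7.50 in the Gpc4 arrays, 7.07 and 7.19 in the TSP1 arrays and 7.32 and 7.08 in the Alone arrays. Both Gpc4 values were above all 4 others. The higher non-overlapping pattern held for 16% of all probe sets with Gpc4 against Alone and 14.6% with Gpc4 against TSP1. The difference was 0.26 with Gpc4 against Alone (standard error 0.11, adjusted p = 0.724 from limma) and 0.33 with Gpc4 against TSP1 (standard error 0.11, adjusted p = 0.971 from limma). Without Alone replicate 2, the difference from Alone was 0.135. A dimmer second probe set of Neto2 gave 0.11 and 0.07 (adjusted p = 0.858 and 0.995 from limma). Neto1, the related auxiliary subunit, had a dim signal, at 3.31 and 3.21 with Gpc4, 3.37 and 3.47 with TSP1 and 3.18 and 3.37 in Alone. Its difference was -0.015 with Gpc4 and 0.15 with TSP1, each against Alone (adjusted p = 0.988 and 0.985 from limma). Cask, a membrane-associated scaffold, differed by 0.13 with Gpc4 and 0.14 with TSP1 against Alone (adjusted p = 0.84 and 0.985 from limma), and its dimmer probe set gave -0.10 and 0.08.

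The subunits of the other ionotropic glutamate receptors gave the same counts. With Gpc4 and with TSP1 against Alone 0 of 4 AMPA receptor subunits, 0 of 7 NMDA receptor subunits and 0 of 1 measured delta receptor subunit passed by limma, on the brightest probe set of each gene, and at an unadjusted p under 0.05 only Gria2 with Gpc4 did. Median differences were -0.05 with Gpc4 and -0.045 with TSP1 for the AMPA receptor subunits, and 0.09 and -0.03 for the NMDA receptor subunits. Gria2, the AMPA receptor subunit that sets calcium permeability, read 10.48 and 10.28 in the Gpc4 arrays, against 10.60 and 10.66 in the Alone arrays. Its difference of -0.25 (standard error 0.10, adjusted p = 0.715 from limma) was -0.15 without Gpc4 replicate 2, and its second probe set gave -0.17. Grin2b, an NMDA receptor subunit, read 6.34 and 6.32 in the Gpc4 arrays, against 6.28 and 5.83 in the Alone arrays. Its difference of 0.28 (standard error 0.16, adjusted p = 0.78 from limma) was 0.05 without Alone replicate 2 and 0.5 without Alone replicate 1. The second probe set of Grin2b gave 0.215 (adjusted p = 0.765 from limma). The remaining genes named by the same rule differed from Alone by -0.12 (Gria3), 0.18 (Grin3a) and -0.06 (Grid1) with Gpc4, and by -0.09 (Gria2), 0.09 (Gria4), -0.19 (Grin2d), 0.17 (Grin3a) and -0.05 (Grid1) with TSP1. The probe sets of Gria4 disagreed, with 0.015, -0.13 and -0.38 for Gpc4 and 0.09, 0.32 and -0.05 for TSP1 against Alone, from the brightest to the dimmest, and none passed after adjustment (lowest adjusted p = 0.553 from limma).

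As a description of the profile over the 6 arrays, which share 2 cultures and 3 conditions, the most similar genes were found among 4907 named probe sets with a mean of at least 6 and a range of at least 0.3. For Grik5 they were Psmd5, Camk2g and Chl1 (Pearson r of 0.996, 0.992 and 0.989). For Grik2 they were Kmt2c, Celf2 and N4bp2 (0.990, 0.988 and 0.988), and for Grik1 Smurf2, Chd4 and Tafa2 (0.993, 0.989 and 0.986). For Grik4, Rom1, Afg2a and Igf2bp3 had values of 0.997, 0.979 and 0.973. For Grik3, Trip4, Mitd1 and Kif3b had values of 0.967, 0.957 and 0.953. With 6 arrays and this many candidates, values this high are a ranking and no finding, and the profiles of Grik3 and Grik4 span only 0.18 and 0.13.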

How the data were processed

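Affymetrix Expression Console was the authors' software for the scanned arrays, and its version is not given in the sources used here. As deposited, the values are RMA expression on the log2 scale (background-corrected, normalized across arrays, probes summarised per probe set), rounded to 2 decimals, and were used as they stand. Probe sets were named through GEO's annotation of the platform (20826 probe sets with 1 symbol, 436 with several, 9780 with none). For all 5 subunits the gene identifier has the same symbol in RefSeq. Coordinates are left out, since no source names a genome build.

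Testing used lmFit and eBayes of limma 3.58.1 (R 4.3.3), with 1 mean per group and 3 residual degrees of freedom. The code was tried on simulated data with changes far larger than any difference of a subunit and no shared effect of culture. That trial does not gauge how well small differences would be found. The number of arrays limits the precision. The replicate numbers pair the arrays. The methods state separate cultures, and over all probe sets the deviations from the group mean correlated between arrays of the same number at 0.37 (Gpc4 and TSP1), 0.29 (Gpc4 and Alone) and 0.35 (TSP1 and Alone). A fit with this replicate block was therefore run too. Intervals are limma's, not adjusted for the number of probe sets.

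The subunits, lists and tests were chosen with earlier results of these data known. Named were all subunits, Neto1, Neto2 and, from each list of partners or other glutamate receptors, the 2 genes of smallest p per comparison with Alone, on the probe set of highest mean. Similar profiles were the 3 highest Pearson correlations per subunit. Alternatives were the replicate block, quantile normalization, median centring, a mean of at least 6, a trended variance, the 2 compared groups alone, the pairwise t-test and leaving out each array. Plots used matplotlib 3.10.9 (Python 3.11.15). The other experiments of the study were not analysed here.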

Additional observations from a re-analysis of the deposited data

How the results depend on the processing

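No kainate receptor probe set passed under any alternative, except Grik4 with Gpc4 against TSP1 by the unadjusted pairwise t-test (1 of 5). At a mean of at least 6 only Grik1, Grik4 and Grik5 were tested. Only quantile normalization, median centring and leaving out a compared array can change a difference. The other alternatives keep its direction by construction. Of 191 subunit differences, 184 kept direction and side of the threshold and 6 changed sign, all when 1 array was left out. These leave out Grik3 with Gpc4 against TSP1, whose difference of 0 has no direction. It was -0.07 (without TSP1 replicate 1) to 0.07 (without TSP1 replicate 2). Against Alone with Gpc4, leaving out 1 array gave -0.075 (without Alone replicate 1) to 0.095 for Grik1, -0.35 (without Gpc4 replicate 1) to -0.04 (without Gpc4 replicate 2) for Grik2, -0.06 (without Alone replicate 2) to 0.11 for Grik3 and -0.06 to 0.05 (without Alone replicate 1) for Grik4. With TSP1 it gave -0.06 (without Alone replicate 2) to 0.11 for Grik3, which was also -0.045 without TSP1 replicate 2. With Gpc4 against TSP1 it gave -0.27 to 0.045 (without Gpc4 replicate 2) for Grik2. The Grik5 difference with Gpc4 against Alone was -0.28 to -0.16 when 1 array was left out. The same alternatives for Neto1, Neto2 and the other glutamate receptor genes were added after the data were seen. Of 244 such values 235 kept direction and side, Neto2 with Gpc4 against TSP1 passed by the unadjusted t-test, and 8 changed sign when 1 array was left out. With Gpc4 the range was -0.11 to 0.08 (without Alone replicate 2) for Neto1, also 0.035 without Gpc4 replicate 2, and -0.18 to 0.06 (without Alone replicate 1) for Grid1, also 0.01 without Gpc4 replicate 2. It was 0.135 (without Alone replicate 2) to 0.375 (without Alone replicate 1) for Neto2. With TSP1 it was -0.19 to 0.05 (without Alone replicate 1) for Neto2, -0.065 (without Alone replicate 2) to 0.25 for Gria4 and -0.17 to 0.07 (without Alone replicate 1) for Grid1, also 0.04 without TSP1 replicate 2.

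The counts over all probe sets moved more, and the cause was not tested. The 26 with Gpc4 against Alone became 64 with the replicate block, 49 with a trended variance, 13 with the 2 groups alone (fewer arrays), 1704 with the unadjusted t-test and 0 with it after Benjamini-Hochberg, and 2 (without Gpc4 replicate 2) to 13 when 1 array was left out. The 0 with TSP1 against Alone became 4 with the replicate block, 1280 with the unadjusted t-test and 0 to 1 (without Alone replicate 1) when 1 array was left out. The 19 with Gpc4 against TSP1 became 80 with the replicate block, 31 at a mean of at least 6, 39 with a trended variance, 1433 with the unadjusted t-test, 0 with it after Benjamini-Hochberg, and 2 (without any one of the Gpc4 or TSP1 arrays) to 13 when 1 array was left out. The replicate block changed no call of a subunit at the adjusted threshold. Each subunit has 1 probe set, so the mean over probe sets of a gene gives the same values. Signal near the array median (Grik1, Grik2 and Grik4) or well below it (Grik3) limits what can be read.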
